A study of Mus musculus with 18 samples.

Results

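The 8 genes described here are *Arhgef10l*, *Slc16a10*, *Zcchc24*, *Slc28a2*, *Rnase4*, *Ecm1*, *Sesn1* and *C77080*. They were chosen from the 20298 genes measured because their RNA was higher, with little spread between replicates, in GM-CSF cultures of monocytes without STAT5 tetramers on day 3 or day 6, and because they are on no common list of macrophage genes. The choice rests on those measured differences, so the day 3 and day 6 genotype values below describe the genes and are not a test of them. The RNA was from Ly6C+ CCR2+ monocytes of C57BL/6 mice, either WT or carrying the *Stat5a*-*Stat5b* double knock-in (DKI), a change in the N-domain of both proteins that lets STAT5 dimers but not tetramers form. The mutation was in the germ line, so every cell of the DKI mice carried it. Cells were left untreated (day 0) or given 20 ng/ml GM-CSF for 3 or 6 days, and each of the 6 groups of genotype and day had 3 libraries. The cells of the GM-CSF cultures are called monocyte-derived cells (MDCs) below, and their age, sex and number of mice per library are not given in the sources used here.

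GM-CSF is a cytokine that signals largely through STAT5 and drives monocytes towards dendritic and macrophage-like cells. STAT5 binds DNA as a dimer, and neighbouring dimers can join through their N-domains into tetramers, which lets them hold weaker sites. Monocytes in culture with GM-CSF lose much of their own program while they gain that of the new cell type, so the level of a gene in DKI MDCs can be read against both WT MDCs and the monocytes at the start.

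The libraries held an estimated 29.5 M to 43.0 M reads, with a median of 36.4 M. In the shallowest library, 0.102 RPKM (reads per kilobase of gene scaled to the mapped reads) stands for 3 reads over 1 kb, a limit that covers counting error only. The tissue was labelled liver, but the study's design names bone marrow, and *Alb*, *Apoa1*, *Ttr*, *Serpina1a* and *Cyp2e1*, which define hepatocytes, were below 0.1 RPKM in all 6 groups. The other hepatocyte markers of the list were *Fabp1* and *Trf* (transferrin), and the sum of all 7 on day 3 lay between 34.8 and 91.0 RPKM for WT and between 70.2 and 779 RPKM for DKI. The 1 marker of the 7 that was fitted, *Trf*, differed by 2.06 on day 3 and 1.66 on day 6 (log2, DKI minus WT) and was not called. The knock-in changes single residues, so gene-level values cannot check it. *Stat5a* lay between 12.1 and 17.1 RPKM in the day 0 libraries of both genotypes. It lay between 27.2 and 62.4 RPKM in WT MDCs and between 9.22 and 14.4 RPKM in DKI MDCs. *Stat5b* lay between 24.3 and 38.8 RPKM in the day 0 libraries of both genotypes. It lay between 17.1 and 29.0 RPKM in WT MDCs and between 12.6 and 16.5 RPKM in DKI MDCs. The day 3 and day 6 libraries of replicate 1 carry an earlier year in their names than all others, and values are given for them apart where they bear on a result.

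Before the levels are given, 3 promoters are shown, because they hold either the letters that STAT5 dimers are known to prefer or a start that a member shares with a second gene. RefSeq promoter windows of build GRCm38.p6 (mm10) were found for all 8 genes, 14 windows in all, each with 250 bases before and 50 bases after a transcript start. They were searched on both strands for TTCNNNGAA (the STAT palindrome), GAGGAA (a core of PU.1 sites), CACGTG (an E-box) and TGCTGA (part of MAF sites). The 250 bases before the start are printed in transcript direction, with matches in capitals.
*Slc28a2*, chr2:122426185-122426434, plus strand: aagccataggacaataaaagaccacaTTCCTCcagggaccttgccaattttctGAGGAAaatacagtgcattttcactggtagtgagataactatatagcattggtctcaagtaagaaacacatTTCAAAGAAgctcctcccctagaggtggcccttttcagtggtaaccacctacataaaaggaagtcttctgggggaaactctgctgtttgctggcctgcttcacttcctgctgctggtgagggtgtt
*C77080*, most upstream of 4 starts, chr4:129261405-129261654, minus strand: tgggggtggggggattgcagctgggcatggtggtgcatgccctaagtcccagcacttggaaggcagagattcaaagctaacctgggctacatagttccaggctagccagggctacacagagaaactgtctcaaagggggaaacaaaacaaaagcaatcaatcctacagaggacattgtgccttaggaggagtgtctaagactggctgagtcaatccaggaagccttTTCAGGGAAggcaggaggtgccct
*Rnase4* and *Ang*, shared start, chr14:51090827-51091076, plus strand: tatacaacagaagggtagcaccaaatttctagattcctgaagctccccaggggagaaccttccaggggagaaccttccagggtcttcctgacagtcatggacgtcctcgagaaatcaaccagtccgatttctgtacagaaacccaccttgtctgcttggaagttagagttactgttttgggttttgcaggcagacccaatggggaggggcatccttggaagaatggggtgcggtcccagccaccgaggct

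The palindrome TTCNNNGAA was present in 2 of the 14 windows, as TTCAAAGAA in *Slc28a2* (first base at -126 from the start) and as TTCAGGGAA in *C77080* (first base at -24). It was present in 8.3% of the 32851 RefSeq windows of the same length. GAGGAA was present in 3 of the 14 windows, those of *Slc28a2* (2 matches), *Zcchc24* and a second *C77080* start, against 28.3% of all windows. TGCTGA was present in 6 windows, of *Arhgef10l*, *Sesn1*, *Slc16a10* and *C77080*, against 19.5% of all windows, although the 2 *Arhgef10l* windows overlap and hold the same match, and CACGTG in none of the 14, against 7.15%. None of the motifs was in the window that *Rnase4* shares with *Ang*. A match describes these letters in a short window and is not a measured binding site.

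In unstimulated monocytes, no difference between genotypes was detected for the 8 genes. This is the comparison the choice of genes did not use, and it was tested with limma across 9179 genes. Of the 7 members with enough RNA to be fitted, 0 were called (percent called over all genes, 0.0), with an adjusted p of 1.0 for each and unadjusted p between 0.489 (*Ecm1*) and 0.983 (*Zcchc24*). The differences lay between -0.08 (*Slc16a10*, SE 0.35) and 0.11 (*Ecm1*, SE 0.15) on the log2 scale, DKI minus WT. Over all genes, 44 had an unadjusted p under 0.05 on day 0, 352 did so with the replicate number as a block, and a fit on all 18 libraries called 6 genes, none of them a member. *C77080* was under the fitted range, at 0.638, 0.146 and 0.130 RPKM in WT and 0.565, 0.223 and 0.170 RPKM in DKI monocytes. The DKI libraries stood all above the WT libraries for 0 of the 8 genes on day 0 (0.719% of all genes). The levels varied more between replicates than between genotypes, most for *Arhgef10l*, whose standard error was 0.59.

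On days 3 and 6 the 3 DKI libraries lay above the 3 WT libraries for 8 of 8 genes, which is the pattern the choice asked for. Over all genes fitted, this was so for 13.4% on day 3 and 10.6% on day 6. A gene was called when the adjusted p was under 0.05 and the fold above 1.5, and by that rule 8 of 8 were called higher on both days, against 3.21% and 2.72% of all genes. With the replicate number as a block, 7 were called on each day, without *Slc28a2* on day 3 and without *Slc16a10* on day 6. With 1 library left out at a time, *Ecm1* and *C77080* were called in each of the 6 fits on both days. The day 6 count was 4 without WT replicate 1 and 5 without WT replicate 3, DKI replicate 1 or DKI replicate 3. Calls fell over all genes too, from 268 higher of 9842 to 38 of 9864 without WT replicate 1. They fell to 31 of 9819, 119 of 9799 and 27 of 9870 in the 3 other fits named. In the replicate 1 pair alone, the differences of the 8 genes lay between 1.99 and 4.44 on day 3 and between 1.80 and 3.60 on day 6. In the mean of the pairs of replicates 2 and 3 they lay between 1.68 and 3.82 and between 1.17 and 3.37. The median of all genes was shifted by -0.11 on day 3 and -0.17 on day 6.

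**Figure D1:**
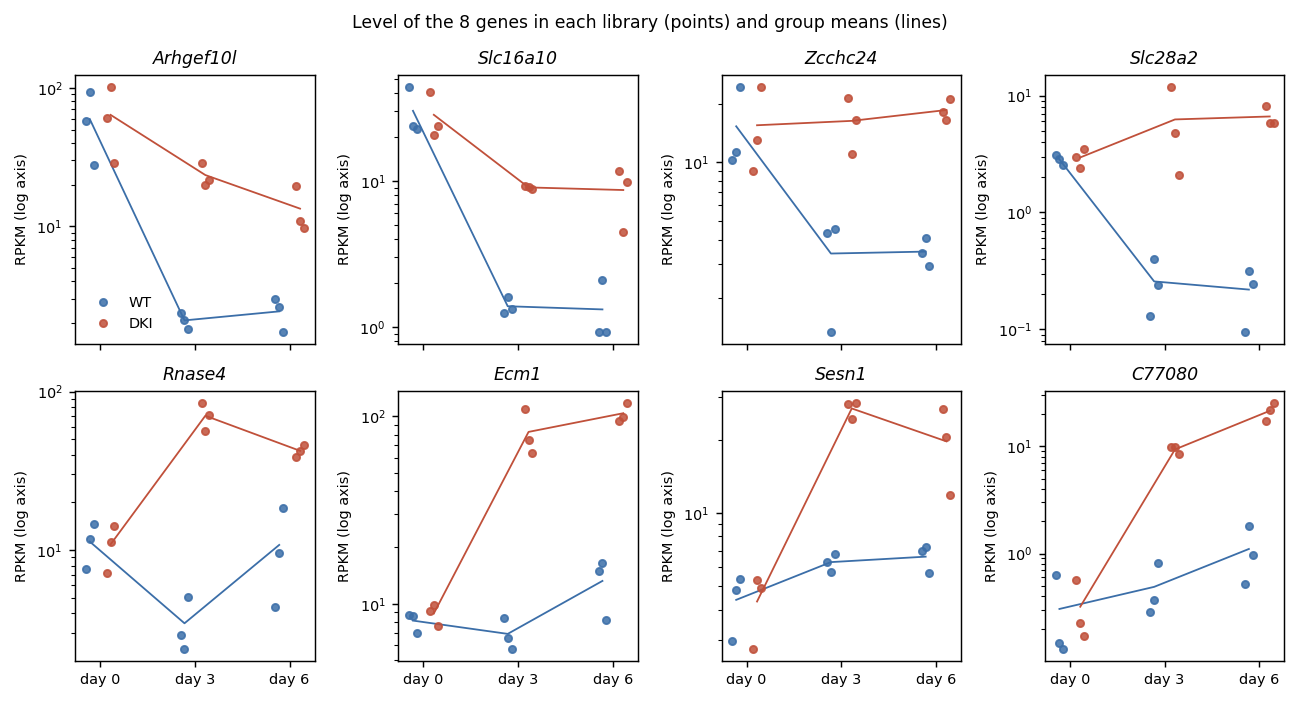
RNA level of each of the 8 genes in RPKM on a log axis, by day and genotype. Points are single libraries (3 per group) and lines join group means. On day 0 the genotypes overlap for each gene, and on days 3 and 6 each DKI point lies above each WT point.

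The genes fell into 3 shapes when the MDCs were set against the monocytes. The first shape, in *Arhgef10l*, *Slc16a10* and *Zcchc24*, was a monocyte level that was lower in WT MDCs and partly or wholly retained in DKI MDCs. The mean level in WT monocytes stood at the 86.5th percentile of the levels of 10417 genes for *Arhgef10l*, at the 72.4th for *Slc16a10* and at the 53.6th for *Zcchc24*. *Arhgef10l* encodes a guanine nucleotide exchange factor. It stood at 57.6, 93.3 and 27.7 RPKM in WT monocytes and at 60.8, 102 and 28.8 RPKM in DKI monocytes. On day 3 it was 2.38, 2.09 and 1.80 RPKM in WT MDCs and 28.9, 19.9 and 21.6 RPKM in DKI MDCs. WT was thus far below every monocyte library, while 1 DKI library (28.9 RPKM) reached the lowest of them and the other two were below all monocyte libraries. The log2 change from day 0 to day 3 was -4.13 (SE 0.43) in WT and -1.25 (SE 0.43) in DKI. On day 6 the WT libraries were at 2.97, 2.60 and 1.73 RPKM and the DKI libraries at 19.5, 10.98 and 9.74 RPKM. All DKI libraries of day 6 were below those of day 3, so part of what had been retained was lower later. DKI minus WT was 2.97 (SE 0.18) on day 3 and 2.03 (SE 0.29) on day 6 on the log2(RPKM + 1) scale, used for all differences here, which understates the change of genes of low level. The day 6 call was lost in 3 of the 6 fits without 1 library.

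*Slc16a10* encodes TAT1, a carrier of aromatic amino acids that also moves thyroid hormones. Its monocyte libraries were at 44.1, 23.7 and 22.7 RPKM in WT and 40.8, 20.5 and 23.7 RPKM in DKI. In WT MDCs it was 1.25, 1.60 and 1.32 RPKM on day 3 and 0.929, 2.11 and 0.927 RPKM on day 6. These are a mean 21.7-fold and 22.9-fold under the WT monocytes. In DKI MDCs it was 9.22, 9.11 and 8.76 RPKM on day 3, the tightest group of any member relative to its mean, and 11.6, 4.49 and 9.88 RPKM on day 6. DKI MDCs were thus below the monocytes but held about the same level from day 3 to day 6 (change of -0.14, SE 0.33). DKI exceeded WT by 2.07 (SE 0.15) on day 3 and 2.01 (SE 0.37) on day 6, and the day 6 call was lost in 4 of the 6 fits that left out 1 library.

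*Zcchc24* encodes a protein with a CCHC zinc finger, a fold common in RNA-binding proteins, and little else is known of it. It was 10.3, 11.2 and 24.4 RPKM in WT and 9.01, 13.03 and 24.4 RPKM in DKI monocytes, so replicate 3 was high in both. WT MDCs were at 4.32, 1.34 and 4.51 RPKM on day 3 and 3.42, 4.08 and 2.91 RPKM on day 6, below all monocyte libraries. DKI MDCs were at 21.4, 10.98 and 16.5 RPKM and then 18.03, 16.5 and 21.2 RPKM, within the span of the monocytes on both days. The change from day 0 to day 3 was -1.89 (SE 0.40) in WT and 0.13 (SE 0.40) in DKI. The genotypes differed by 2.03 (SE 0.40) on day 3 and 2.13 (SE 0.16) on day 6. The day 3 call was lost in 5 of the 6 fits that left out 1 library.

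The second shape, in *Slc28a2* and *Rnase4*, was a level that was lower than the monocytes' in WT MDCs and higher than the monocytes' in DKI MDCs on at least 1 day. *Slc28a2* encodes CNT2, a sodium-coupled importer of purine nucleosides and uridine. It was 3.11, 2.86 and 2.56 RPKM in WT and 2.97, 2.40 and 3.50 RPKM in DKI monocytes. In WT MDCs it was low, at 0.131, 0.402 and 0.239 RPKM on day 3 and 0.0952, 0.316 and 0.245 RPKM on day 6, the lowest of which is about 13 reads. In DKI MDCs it was 11.9, 4.78 and 2.08 RPKM on day 3 and 8.21, 5.78 and 5.88 RPKM on day 6. The day 3 values of the DKI replicates spread widely and overlapped the monocytes, whereas those of day 6 were all above them. DKI minus WT was 2.29 (SE 0.51) on day 3, at 3.51 in the replicate 1 pair against 1.68 in the mean of the other pairs, and 2.63 (SE 0.21) on day 6. The day 3 call was lost in 4 of the 6 fits without 1 library. Of the 4228 distinct 50-base stretches of its GENCODE transcripts, 35.4% also occur in *Gm14085* (not analysed here). The level thus depends on how the authors' counting treated reads that match both genes, which is not given in the sources used here.

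*Rnase4* encodes a small secreted ribonuclease of the RNase A family. It was 7.57, 11.7 and 14.7 RPKM in WT and 7.17, 11.3 and 14.1 RPKM in DKI monocytes, with matching order of the replicates. On day 3 it was 2.93, 2.40 and 5.05 RPKM in WT MDCs and 84.2, 56.2 and 70.8 RPKM in DKI MDCs. WT was below and DKI above all monocyte libraries, with changes of -1.47 and 2.61 (SE 0.38 for both). On day 6 the WT libraries were at 4.38, 9.66 and 18.3 RPKM and overlapped the monocytes, and the DKI libraries were at 38.4, 42.2 and 46.2 RPKM, all below day 3. DKI minus WT was 4.03 (SE 0.26) on day 3, the highest of the 8 genes on this scale (as a ratio of mean RPKM, 20.4 against 24.3 for *Slc28a2*), and 2.06 (SE 0.44) on day 6, and the day 6 call was lost in 5 of the 6 fits that left out 1 library.

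The third shape, in *Ecm1*, *Sesn1* and *C77080*, was a level in all DKI MDC libraries above that of the monocytes, without the lower level of WT MDCs seen in the other shapes. The mean of WT MDCs on day 6 was 1.63 times that of WT monocytes for *Ecm1*, 1.51 times for *Sesn1* and 3.63 times for *C77080*, from a low base. *Ecm1* encodes a secreted glycoprotein of the extracellular matrix. It was 8.76, 8.64 and 7.03 RPKM in WT and 9.21, 9.87 and 7.59 RPKM in DKI monocytes. On day 3 it was 8.42, 6.55 and 5.78 RPKM in WT MDCs and 108.9, 74.9 and 64.0 RPKM in DKI MDCs. On day 6 it was 15.0, 16.6 and 8.24 RPKM in WT MDCs and 94.8, 99.8 and 117 RPKM in DKI MDCs. WT overlapped the monocytes on both days, while the lowest DKI library was 7.6 times the highest WT library on day 3 and 5.73 times on day 6. The DKI change from day 0 was 3.05 (SE 0.24) by day 3 and 3.41 (SE 0.24) by day 6. The genotypes differed by 3.38 (SE 0.24) on day 3 and 2.93 (SE 0.27) on day 6. In DKI MDCs of day 6 *Ecm1* stood at the 94.5th percentile of the levels of 10417 genes, against the 51.7th in WT MDCs.

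*Sesn1* encodes sestrin 1, a protein induced by p53 and FOXO factors that takes part in leucine sensing upstream of mTORC1. It was 2.96, 4.83 and 5.36 RPKM in WT and 2.77, 5.28 and 4.91 RPKM in DKI monocytes. WT MDCs were slightly above that, at 6.30, 5.72 and 6.80 RPKM on day 3 and 6.95, 7.21 and 5.66 RPKM on day 6. DKI MDCs were at 28.1, 24.5 and 28.2 RPKM on day 3 and 26.7, 20.6 and 11.8 RPKM on day 6. It was the only member for which all libraries of both genotypes were above their own monocytes on day 3, by 0.46 in WT and 2.43 in DKI (SE 0.26 for both). DKI minus WT was 1.94 (SE 0.13) on day 3 and 1.38 (SE 0.29) on day 6, and the day 6 call was lost in 5 of the 6 fits that left out 1 library.

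*C77080* is the mouse counterpart of human KIAA1522, a gene of the NHS-like family whose role in myeloid cells is not settled. After its near absence in monocytes (above), it was 0.284, 0.369 and 0.815 RPKM in WT MDCs on day 3 and 0.523, 1.83 and 0.962 RPKM on day 6. In DKI MDCs it was 9.90, 9.76 and 8.41 RPKM on day 3 and 17.4, 21.7 and 25.1 RPKM on day 6. It was the only member whose DKI libraries were all higher on day 6 than on day 3. The lowest DKI library was 10.3 times the highest WT library on day 3 and 9.53 times on day 6. The difference between genotypes was 2.81 (SE 0.20) on day 3 and 3.45 (SE 0.26) on day 6, the latter the highest of the 8 genes on that day on this scale. As a ratio of mean RPKM, *Slc28a2* was higher on day 6 (30.2 against 19.4 for *C77080*). The lowest monocyte value rests on about 24 reads.

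**Figure D2:**
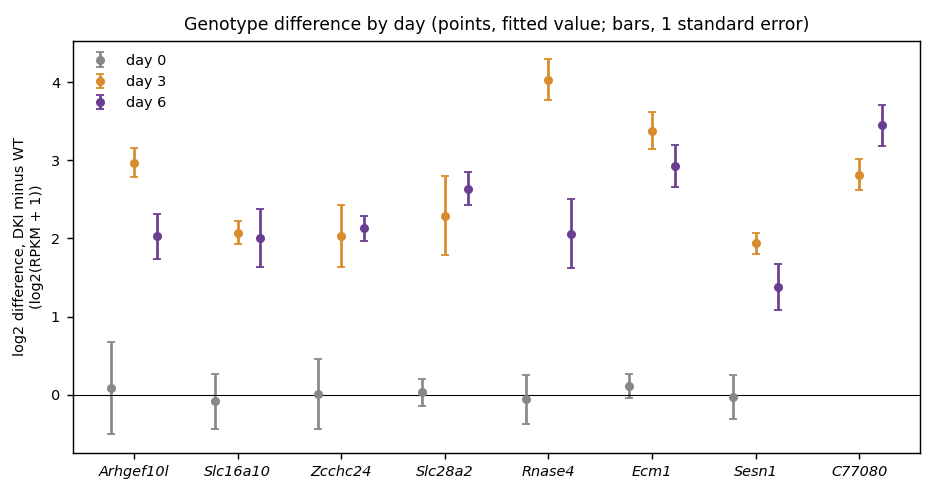
Difference between DKI and WT on the log2(RPKM + 1) scale (vertical axis) for each gene and day, as fitted by limma, with bars of 1 standard error. *C77080* has no day 0 point because it was under the fitted range. The day 0 points lie between -0.08 and 0.11 and those of days 3 and 6 between 1.38 and 4.03.

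Counted together, all WT libraries of day 3 were below all WT monocyte libraries for 5 of the 8 genes and above them for 1, where 31.3% and 29.4% of all genes were so. In DKI, all libraries of day 3 were above the monocytes for 4 genes and below them for 1, where 21.4% and 33.3% of all genes were so. The median change of the 8 genes from day 0 to day 3 was -1.54 in WT and 1.53 in DKI, and that of all genes was -0.03 and -0.13. The day 3 and day 6 libraries in these changes are those on which the genes were chosen, so these counts are a description. From day 3 to day 6 the WT libraries overlapped for 8 of 8 genes, where those of all genes were wholly higher for 6.07% and wholly lower for 7.82%. The DKI libraries overlapped for 5, were lower on day 6 for 2 (*Arhgef10l* and *Rnase4*) and were higher for *C77080*, against 3.17% and 1.57% of all genes. The genotype difference was smaller on day 6 than on day 3 by 1.97 for *Rnase4* and 0.94 for *Arhgef10l* on the log2 scale and was larger by 0.63 for *C77080*, differences that were not tested.

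**Figure D3:**
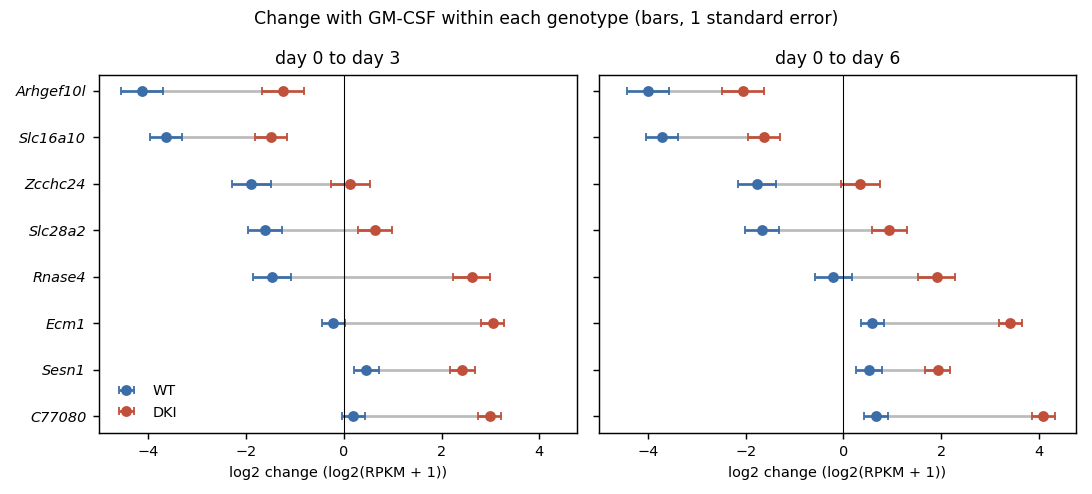
Change in log2(RPKM + 1) from monocytes to day 3 (left) and day 6 (right) in WT and DKI cultures, with bars of 1 standard error and a grey line joining the genotypes. From the top, the genes go from -4.13 in WT and -1.25 in DKI on day 3 (*Arhgef10l*) to 0.20 and 2.98 (*C77080*).

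Per kilobase of gene, the mean level of the 8 genes in DKI MDCs of day 6 ran from *Ecm1* (103.9 ± 11.8 RPKM, SD, n = 3) and *Rnase4* (42.3 ± 3.88) through *C77080* (21.4 ± 3.87), *Sesn1* (19.7 ± 7.47), *Zcchc24* (18.6 ± 2.39) and *Arhgef10l* (13.4 ± 5.33) to *Slc16a10* (8.67 ± 3.72) and *Slc28a2* (6.62 ± 1.38). From *C77080* to *Slc28a2*, each gene differed from the next in this order by less than the larger of their standard deviations. In WT MDCs of the same day the first was again *Ecm1* (13.3 ± 4.41) and the last again *Slc28a2* (0.219 ± 0.113). There *Rnase4* (10.8 ± 7.04) differed from *Ecm1* by less than the larger of their standard deviations.

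The 8 genes did not share 1 pattern over the 18 libraries. Pearson's r of log2(RPKM + 1), a description over libraries that share genotype and day, was 0.97 between *C77080* and *Ecm1* and 0.94 between *Arhgef10l* and *Slc16a10*, and -0.17 between *Sesn1* and *Slc16a10*. Among all other genes with a mean above 2 RPKM in some group, the one most like *Arhgef10l* was *Atp1b3* (r = 0.97), a subunit of the sodium pump, and the ones most like *Slc16a10* were *Stom* (0.98), *Slc8b1* (0.98) and *Thbd* (0.98). The mean of *Stom* was 282 RPKM in WT monocytes, 38.4 RPKM in WT MDCs of day 3 and 125 RPKM in DKI MDCs of that day. *Ecm1* was closest to *Mmp27* (0.97), *Timp2* (0.97) and *Syngr1* (0.96), of which *Mmp27* encodes a matrix metalloproteinase and *Timp2* an inhibitor of such enzymes. The mean of *Timp2* on day 3 was 4.50 RPKM for WT against 60.5 RPKM for DKI MDCs. *C77080* was closest to *Ctsl* (0.97), the lysosomal protease cathepsin L, *Igf1* (0.97) and *Cd84* (0.96). *Sesn1* was closest to *Hs2st1* (0.98), *Btbd3* (0.97) and *Pf4* (0.96), *Zcchc24* to *Vsir* (0.96), *Hacd4* (0.96) and the carrier *Slc16a7* (0.95), *Slc28a2* to *Oas2* (0.95), *Dio2* (0.95) and *Osbpl11* (0.94), and *Rnase4* to *Nynrin* (0.92), *Ang* (0.92) and *Fer* (0.91).

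Markers of macrophages and of monocyte-derived dendritic cells differed between genotypes as well. In bulk RNA, fewer cells of a type and less RNA per cell cannot be told apart. Of 19 fitted macrophage markers, 8 were called higher in DKI on day 3 and 9 on day 6, and the summed level of the 21 markers in the table on day 3 lay between 1787 and 2332 RPKM for WT and between 7822 and 19800 RPKM for DKI. *Timd4* and *Lyve1*, which mark some resident macrophages, were below 0.1 RPKM in the MDCs of both genotypes. Of the fitted markers of monocyte-derived dendritic cells, 9 of 14 were called lower in DKI on day 3 and 10 of 15 on day 6. Over all genes, 410 of 9740 and 474 of 9842 were called lower on these days. None of 10 neutrophil and 8 classical monocyte markers was called on either day. Their median differences were 1.66 (neutrophil) and 1.26 (classical monocyte) on day 3 and 0.45 and 1.01 on day 6, higher in DKI like the 8 genes. The neutrophil sum of day 3 lay between 273 and 4714 RPKM for WT and between 1662 and 3706 RPKM for DKI, and the classical monocyte sum of day 6 between 344 and 1469 RPKM for WT and between 527 and 10670 RPKM for DKI. Of the 8 B and plasma cell markers, with 3 fitted on day 3 and 2 on day 6 and none called, the sum of day 6 lay between 4.93 and 7.33 RPKM for WT and between 8.31 and 26.2 RPKM for DKI, and the median differences were 1.05 and 1.19. Of the 8 stromal and endothelial markers, with 1 and 3 fitted and none called, the sum of day 3 lay between 2.67 and 3.14 RPKM for WT and between 4.02 and 17.8 RPKM for DKI, and the median differences were 1.02 and 1.12. The part of these shifts in the levels of the 8 genes was not tested.

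The genes next to the 8 were measured to see whether a whole region moved with them. Of 16 neighbours, the nearest gene of the table on each side, 9 were fitted on day 3 and 9 on day 6, and 1 was called on day 3 and 1 on day 6 (11.1% on both days, against 7.42% and 7.54% of all genes). The one of day 3 was *Ang* (angiogenin), which lies over *Rnase4* on chromosome 14 and starts at the same base, 51091077, from the promoter printed above. *Ang* was 0.423, 0.146 and 0.512 RPKM in WT and 9.39, 3.65 and 8.51 RPKM in DKI MDCs on day 3, a difference of 2.51 (SE 0.34, adjusted p = 0.0137). On day 6 it was 0.672, 1.95 and 2.59 RPKM in WT and 6.55, 4.60 and 6.19 RPKM in DKI MDCs, and the difference of 1.37 (SE 0.31) was not called (adjusted p = 0.0505). In monocytes *Ang* was at a mean of 3.15 ± 0.454 (WT) and 3.14 ± 0.598 RPKM (DKI, SD, n = 3), so like *Rnase4* its mean was lower in WT MDCs of day 3 than in monocytes and higher in DKI MDCs. In GENCODE the exons of the pair share 219 bases, 13.4% of those of *Rnase4* and 18.2% of those of *Ang*. Reads on these shared bases cannot be assigned to 1 of the genes.

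The one of day 6 was *Bambi-ps1*, a pseudogene 5430 bases beyond *Slc28a2*. It was 0.188, 0.307 and 0.136 RPKM in WT and 4.22, 2.03 and 2.71 RPKM in DKI MDCs on day 6, a difference of 1.68 (SE 0.27, adjusted p = 0.0262). On day 3 it was 0.0933, 0.263 and 0.358 RPKM in WT and 10.8, 1.99 and 1.77 RPKM in DKI MDCs, with a difference of 1.90 (SE 0.57) that was not called (adjusted p = 0.0997). In both *Bambi-ps1* and *Slc28a2*, DKI replicate 1 of day 3 was the highest library. The other fitted neighbours were not called on either day, with differences between -0.53 (*Yars* on day 3, 337 bases from *C77080*) and 0.21 (*Rpf2* on day 6, next to *Slc16a10*). *Tars2*, 97 bases from *Ecm1*, had 6.22 ± 0.118 RPKM for WT against 5.29 ± 0.554 RPKM for DKI MDCs on day 3 (adjusted p = 0.39). *Armc2*, 26 bases past *Sesn1*, was too low to be fitted, with 0.0079 ± 0.0069 RPKM for WT against 0.163 ± 0.0798 RPKM for DKI MDCs on day 3. Without WT replicate 1, neither *Ang* on day 3 (adjusted p = 0.0551) nor *Bambi-ps1* on day 6 (adjusted p = 0.0859) was called. The call of *Ang* was also lost without WT replicate 2 or 3 (adjusted p = 0.0547 and 0.0518), and that of *Bambi-ps1* without WT replicate 3, DKI replicate 1 or DKI replicate 3 (adjusted p = 0.0938, 0.0515 and 0.0829).

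Relatives of the 8 genes in family or pathway were drawn from 9 lists with 148 genes in the table. On day 3, 5 were called higher and 6 lower, 10.4% of those fitted, against 7.42% of all genes. On day 6, 4 of the 109 fitted were called higher and 3 lower (6.42%, against 7.54%). The median difference of these genes was -0.03 on day 3 and -0.01 on day 6. The day 3 count of 11 was 4 without WT replicate 1 or 2 and 5 without WT replicate 3. The day 6 count of 7 was 0 without WT replicate 1 or 3, 4 without WT replicate 2, 3 without DKI replicate 1, 11 without DKI replicate 2 and 1 without DKI replicate 3. The calls of *Sesn2*, *Bcl6*, *Slc7a8* and *Arhgef40* on day 3 held with each library left out in turn, and each other call named below was lost without WT replicate 1 (adjusted p between 0.0551 and 0.138).

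Sestrins did not move as a family. Among 24 targets of p53 and FOXO, 0 were called higher. Of those fitted, 4 of 22 on day 3 and 1 of 23 on day 6 were called lower. Of all genes, 410 of 9740 on day 3 and 474 of 9842 on day 6 were called lower. *Sesn3*, the third sestrin, was 14.6, 13.1 and 8.52 RPKM in WT and 3.19, 3.10 and 5.58 RPKM in DKI MDCs on day 3, a difference of -1.41 (adjusted p = 0.0335, 0.0827 with the replicate block), and differed by -1.86 on day 6 (adjusted p = 0.0282). *Bcl6*, a transcriptional repressor, was lower in DKI than in WT on day 3, with a difference of -1.67 (adjusted p = 0.0105). *Sesn2* and *Pmaip1* were the other called genes and are named after their values were seen. *Sesn2* was 60.2, 39.3 and 39.3 RPKM in WT and 15.2, 11.8 and 14.9 RPKM in DKI MDCs on day 3, a difference of -1.64 (adjusted p = 0.0126), while the difference of day 6 was -1.08 (adjusted p = 0.061, 0.0358 with the block). *Pmaip1*, which encodes the cell death protein NOXA, was lower in DKI than in WT on day 3, by a difference of -1.10 (adjusted p = 0.0395, but 0.078 under the block). Its day 6 difference was -1.40 (adjusted p = 0.063, but 0.0488 under the block). *Sesn1* was thus higher in DKI MDCs where the 2 other sestrins were lower, on the same days and in the same libraries. Of 18 genes of amino acid sensing upstream of mTORC1, 0 were called on day 3 and *Castor1*, an arginine sensor, was lower in DKI than in WT on day 6, with a difference of -1.39 (adjusted p = 0.041).

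**Figure D4:**
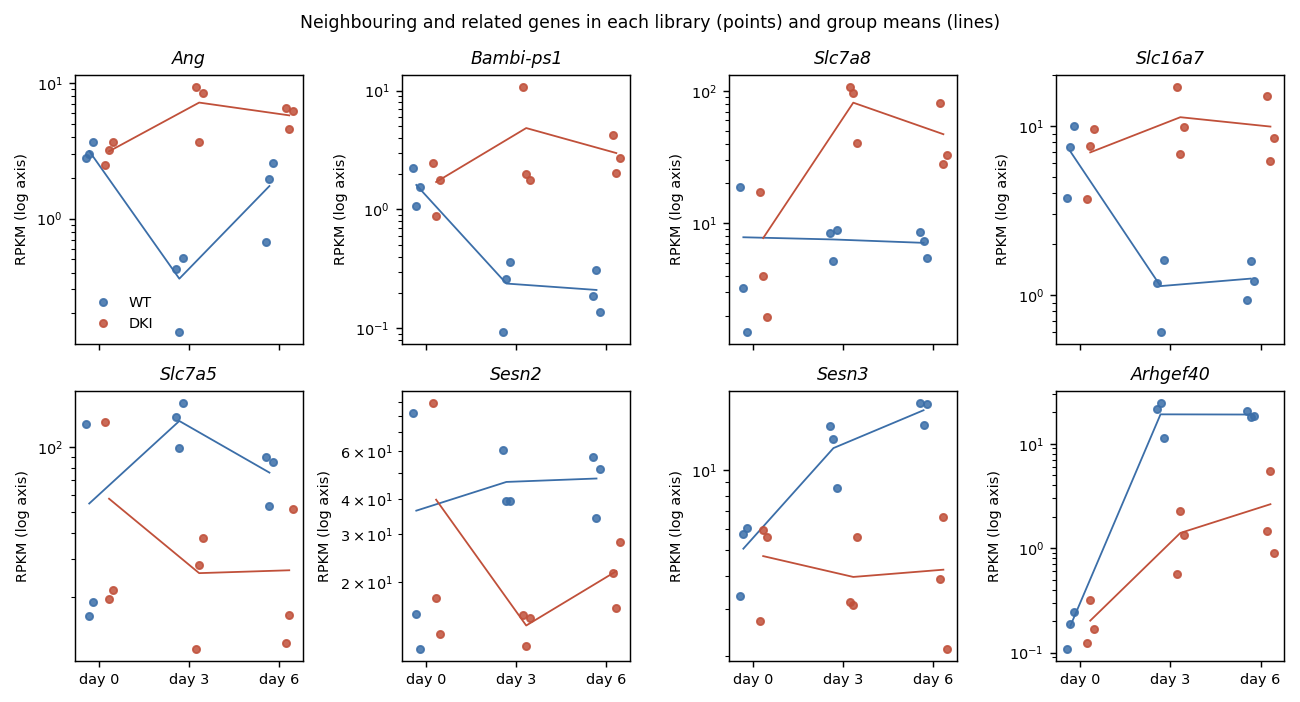
RNA level in RPKM on a log axis for 2 neighbours (*Ang*, *Bambi-ps1*) and 6 relatives of the 8 genes, by day and genotype, with points for single libraries and lines for group means. On day 3 *Slc7a8* reaches 108 RPKM in DKI against at most 8.95 RPKM in WT, while *Slc7a5*, *Sesn2*, *Sesn3* and *Arhgef40* are lower in DKI.

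Carriers related to *Slc16a10* moved in both directions. Of 12 fitted, 3 were called higher and 1 lower on day 3 and 2 higher on day 6. *Slc7a8* (LAT2), an exchanger of neutral amino acids, was 8.51, 5.16 and 8.95 RPKM in WT and 107.8, 97.0 and 40.4 RPKM in DKI MDCs on day 3 and was higher by 3.19 (adjusted p = 0.0116), and by 2.43 on day 6 (adjusted p = 0.0268). *Slc16a7* (MCT2), a monocarboxylate carrier, was higher by 2.47 on day 3 (adjusted p = 0.0145) and by 2.21 on day 6 (adjusted p = 0.0197), with 1.13 ± 0.503 RPKM for WT against 11.3 ± 5.25 RPKM for DKI MDCs on day 3. *Slc16a6* and *Slc7a5* were the other called genes and are named after their values were seen. *Slc16a6* was higher by 1.44 on day 3 (adjusted p = 0.0169). *Slc7a5* (LAT1), which brings large neutral amino acids into growing cells, was 138, 98.9 and 160 RPKM in WT and 11.6, 28.3 and 37.9 RPKM in DKI MDCs on day 3, a difference of -2.43 (adjusted p = 0.0277).

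Fewer relatives of the other members were called. Of 11 fitted genes of nucleoside transport and purine salvage, the group of *Slc28a2*, *Xdh* (xanthine dehydrogenase, the last step of purine breakdown) was called higher, by 1.57 on day 3 (adjusted p = 0.0395, 0.0758 with the replicate block) and by 1.62 in the later cultures (adjusted p = 0.0295, and 0.0584 with the block). *Xdh* had 106.7 ± 24.5 RPKM in WT monocytes, and 21.6 ± 2.71 RPKM for WT against 70.6 ± 33.8 RPKM for DKI among MDCs of day 3. *Arhgef40*, an exchange factor of the same gene family as *Arhgef10l*, was lower in DKI than in WT, with a difference of -3.07 on day 3 (adjusted p = 0.0105) and -2.67 on day 6 (adjusted p = 0.0268). It was 21.7, 24.3 and 11.4 RPKM in WT and 0.568, 2.29 and 1.34 RPKM in DKI MDCs on day 3. In the RNase A family *Ang* alone of 5 fitted genes was called on day 3 and 0 of 6 on day 6. None was called among 7 fitted genes of the list of *Ecm1*, matrix partners and TGF-beta release (differences of -0.62 to 2.46 on day 3, then -0.42 to 3.04). The highest, *Fn1* on day 6, had an SE of 1.38. *Ecm2*, *Hspg2*, *Fbln1* and *Efemp1* of that list were too low to be fitted. None was called among 9 fitted genes of the WAVE complex (-2.19 to 0.08, then -2.04 to 0.00). *Nhsl1* was too low to be fitted, so no NHS family relative of *C77080* was compared. None was called among 10 CCHC zinc finger genes (-0.44 to 0.72, then -0.42 to 0.82). Relatives called only with the replicate block included, named after their values were seen, *Nckap1* of the WAVE complex (-2.19 and -2.04, lower on both days), *Arhgef3* (1.27 and 0.94, higher on both days) and the purine enzyme *Gda* (2.01, higher on day 3).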

How the data were processed

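RNA-seq of 18 mouse libraries in 6 groups (WT and DKI on days 0, 3 and 6) was analysed. The authors aligned single-end reads to mm10 with Subread, counted them on RefSeq genes with featureCounts and deposited RPKM values, 1 column per library, all 18 of which were used. Versions, strandedness and the treatment of reads matching several genes are not given in the sources used here. Groups and replicate numbers came from the labels. Of 20298 genes, 20082 were matched by Entrez identifier to RefSeq GRCm38.p6.

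Depth was estimated from the low values of 895 single-exon genes. Between 71.8% and 86.4% of those values were whole reads within 0.06 read, where chance gives 12%, so depths are approximate and no count test was run.

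For each day, log2(RPKM + 1) of genes with a mean above 2 RPKM in either genotype was fitted with limma 3.58.1 (eBayes with trend, R 4.3.3) separately, 6 libraries at a time. The call rule was a Benjamini-Hochberg adjusted p under 0.05 over all genes fitted together with a fold change above 1.5. These limits are those the authors used with edgeR, which needs counts. Changes with GM-CSF came from a fit of all 18 libraries and carry no p. The study combined 3 independent experiments, but the sources used here do not say that same-numbered libraries came from the same one. The deviations of WT and DKI libraries with the same number were correlated on each day (0.163 to 0.865), so results with the number as a block are given where they change a call. P-values measure the spread between these libraries.

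The 8 genes, the 9 lists of related genes and the marker lists were chosen with earlier results of these data known. From each list the genes called on both days and the up to 2 largest called changes are named, and other names are marked. Alternatives were a pseudocount of 0.1, no filter, a filter at 1 RPKM, median centring, quantile normalization, a fit on all 18 libraries, the block, and leaving out each library. Shared sequence was counted as 50-base stretches of GENCODE transcripts. The shared exon bases and the estimated reads of the 8 genes used GENCODE exons. Python 3.11.15, pandas 2.3.3 and numpy 2.4.6 were used. Some genes of 1 list are not reported here.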

Additional observations from a re-analysis of the deposited data

Results flagged for a closer look

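*Rnase4* moved in opposite directions with GM-CSF in the genotypes. From day 0 to day 3 its log2 change was -1.47 in WT, where all libraries were lower than the monocytes, and 2.61 in DKI, where all were higher. *Slc28a2* did so from day 0 to day 6, with -1.66 in WT and 0.94 in DKI. The differences between genotypes in these changes were not tested, since the genes were chosen on the day 3 and day 6 libraries.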

How the results depend on the processing

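The count of members called on day 6 was 3 with no filter on low RPKM, where all 20298 genes were tested together, against 8. Over all genes, 10 were called higher in that fit, against 268 of 9842 with the filter. With no filter the count of related genes called was 0 on both days and that of neighbours 0 on both days. With a fit on all 18 libraries, 14 related genes were called on day 6, and 2 neighbours on each day. In that fit, 508 of 10417 genes were called higher and 1037 lower on day 6. Median centring and quantile normalization each called 2 neighbours on day 6. The causes were not tested. The median WT change of the 8 genes from day 0 to day 3 was -1.95 with a pseudocount of 0.1. With 1 library left out, members called numbered 0 on day 0, 6 to 7 on day 3 and 4 to 6 on day 6, related genes 4 to 12 and then 0 to 11, and neighbours 0 to 1 on both days. In the same fits, 83 to 326 of all genes were called higher on day 3 and 27 to 329 on day 6, against 313 and 268. Such fits have fewer samples. The replicate block changed no other call of a member or named gene than those given above. The lowest values of *Slc28a2* and *C77080* rest on about 13 and 24 reads and limit their fold changes.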
